A study of Mus musculus with 18 samples.

Results

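Transcripts of 8 scavenger receptor genes were followed in sorted mouse microglia and astrocytes: Msr1, Cd36, Olr1, Scarb1, Cd68, Colec12, Ager and Scara3. The 8 genes were a named set, and all 8 of them were found among the 24421 gene symbols of each count table. The 18 libraries came from the brains of 9 mice of strain C57BL/6j, and each mouse gave 1 library of microglia and 1 of astrocytes. WT mice (4) carried the unaltered App gene, and APP mice (5, genotype label APP_NLGF/NLGF) carried the App NL-G-F knock-in, a humanised and mutated amyloid precursor expressed from the mouse App locus that leads to amyloid plaques. All library names carry C3WT, so both genotypes had intact C3, and no mouse was treated. WT replicate 1 was female and WT replicates 2 to 4 were male, whereas APP replicate 1 was male and APP replicates 2 to 5 were female. The sources used here do not give the age of the mice or the antibodies that set the sort gates. C3-deficient mice were not analysed here.

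Scavenger receptors are cell surface or endosomal proteins that bind polyanionic and modified ligands, among them oxidised lipoproteins, apoptotic cells and fibrillar amyloid-beta. In the brain they are known mainly from microglia and macrophages, where Msr1 and Cd36 take up or signal from amyloid-beta fibrils. Msr1, Colec12 and Scara3 belong to class A, which has collagen-like stalks, although Scara3 is known as a stress-induced protein and not as an uptake receptor. Cd36 and Scarb1 belong to class B and also move lipids, Scarb1 being the receptor for high-density lipoprotein. Cd68 is a heavily glycosylated late endosomal and lysosomal protein of macrophages, Olr1 is the lectin-like receptor for oxidised low-density lipoprotein, and Ager is the receptor for advanced glycation end products, S100 proteins and Hmgb1.

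Promoter sequence was matched for 4 of the 8 genes in RefSeq (GRCm38.p6). The 250 bases before the annotated start are shown for 3 genes that moved in microglia, Cd68 and Olr1 upward and Cd36 downward, read 5′ to 3′ on the strand of the gene, with motif matches in capitals. Cd68 spans chr11:69666171-69666420, Olr1 chr6:129507166-129507415 and Cd36 chr5:17835897-17836146, all on the minus strand, and the whole Cd36 window and most of the Olr1 window lie inside the longer annotated spans of those genes.

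Cd68: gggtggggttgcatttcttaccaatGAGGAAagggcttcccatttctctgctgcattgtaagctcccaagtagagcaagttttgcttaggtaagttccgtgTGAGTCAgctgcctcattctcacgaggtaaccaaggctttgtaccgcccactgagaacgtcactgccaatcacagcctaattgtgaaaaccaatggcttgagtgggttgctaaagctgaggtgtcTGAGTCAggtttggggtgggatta

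Olr1: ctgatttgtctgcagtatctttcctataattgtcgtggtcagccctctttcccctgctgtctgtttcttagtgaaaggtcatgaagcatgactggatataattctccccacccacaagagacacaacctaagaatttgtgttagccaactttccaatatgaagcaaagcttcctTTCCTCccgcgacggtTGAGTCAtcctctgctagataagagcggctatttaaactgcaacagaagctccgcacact

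Cd36: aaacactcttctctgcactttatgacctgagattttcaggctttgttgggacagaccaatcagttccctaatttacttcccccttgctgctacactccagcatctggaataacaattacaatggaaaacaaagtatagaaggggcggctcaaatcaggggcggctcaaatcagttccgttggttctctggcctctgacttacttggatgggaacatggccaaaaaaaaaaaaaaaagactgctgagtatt

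The letters searched, on both strands, were GAGGAA (the core bound by PU.1-type factors), TGANTCA (AP-1-type) and TCACGTG (a core of the CLEAR element of lysosomal genes), and they were chosen with these windows in view. The Cd68 window holds 1 GAGGAA and 2 TGANTCA, and the Olr1 window holds 1 of each, the GAGGAA on the opposite strand. The Cd36 window holds none of the 3 motifs. Over 32851 promoter windows of this length, GAGGAA occurs in 23.3%, TGANTCA in 6.75%, both in 1.55%, and at least 2 TGANTCA in 0.338%. No overlap between motif matches occurs in these windows, and a match is a description of the letters only.

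Library totals ran from 8834866 to 22522407 counts, and levels below are CPM, counts scaled to a common library size on TMM-adjusted totals. The summed CPM of 16 microglial markers was 44352 to 56765 in microglia, and that of 12 astrocyte markers 28843 to 55675 in astrocytes, so the labels matched the RNA. Each sort also held RNA of other cells. In astrocytes the microglial marker sum was 137 to 182 CPM in WT and 384 to 507 CPM in APP. WT replicates 1 and 4 stood apart, with endothelial sums of 1178 and 1166 CPM in astrocytes against 3637 to 5453 CPM in the other 7 astrocyte libraries. In bulk RNA, fewer cells of a type and less RNA per cell cannot be told apart.

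The levels of the receptors were first ordered per kilobase of exon, on CPM scaled over all 18 libraries. In WT microglia Cd68 led at 257 ± 17.5 CPM per kb (SD, n = 4), followed by Scarb1 at 12.8 ± 1.47, Cd36 at 6.12 ± 0.688 and Msr1 at 3.12 ± 0.657 CPM per kb. The libraries of these 4 genes did not overlap between neighbours in that order, whereas Msr1, Scara3 (2.88 ± 1.87), Ager and Colec12 overlapped each with the next, and Olr1 was lowest, without overlap, at 0.495 ± 0.0737 CPM per kb. In APP microglia Colec12 followed Cd68 and Scarb1, at 4.26 ± 0.451 CPM per kb (n = 5), and overlapped with Msr1, which overlapped with Cd36 at 2.82 ± 0.791.

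In astrocytes the order was different. Scara3 led in WT at 105 ± 31.7 CPM per kb (n = 4), ahead of Scarb1 at 14.4 ± 7.64 and Colec12 at 5.44 ± 2.01 CPM per kb, with no overlap between these neighbours. Ager came next at 1.54 ± 0.366 CPM per kb, and Msr1 and Olr1 were at or near 0. In APP astrocytes the same 3 genes led, with Scara3 at 43.3 ± 8.68, Scarb1 at 24.2 ± 2.53 and Colec12 at 10.7 ± 0.688 CPM per kb (n = 5).

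**Figure D1:**
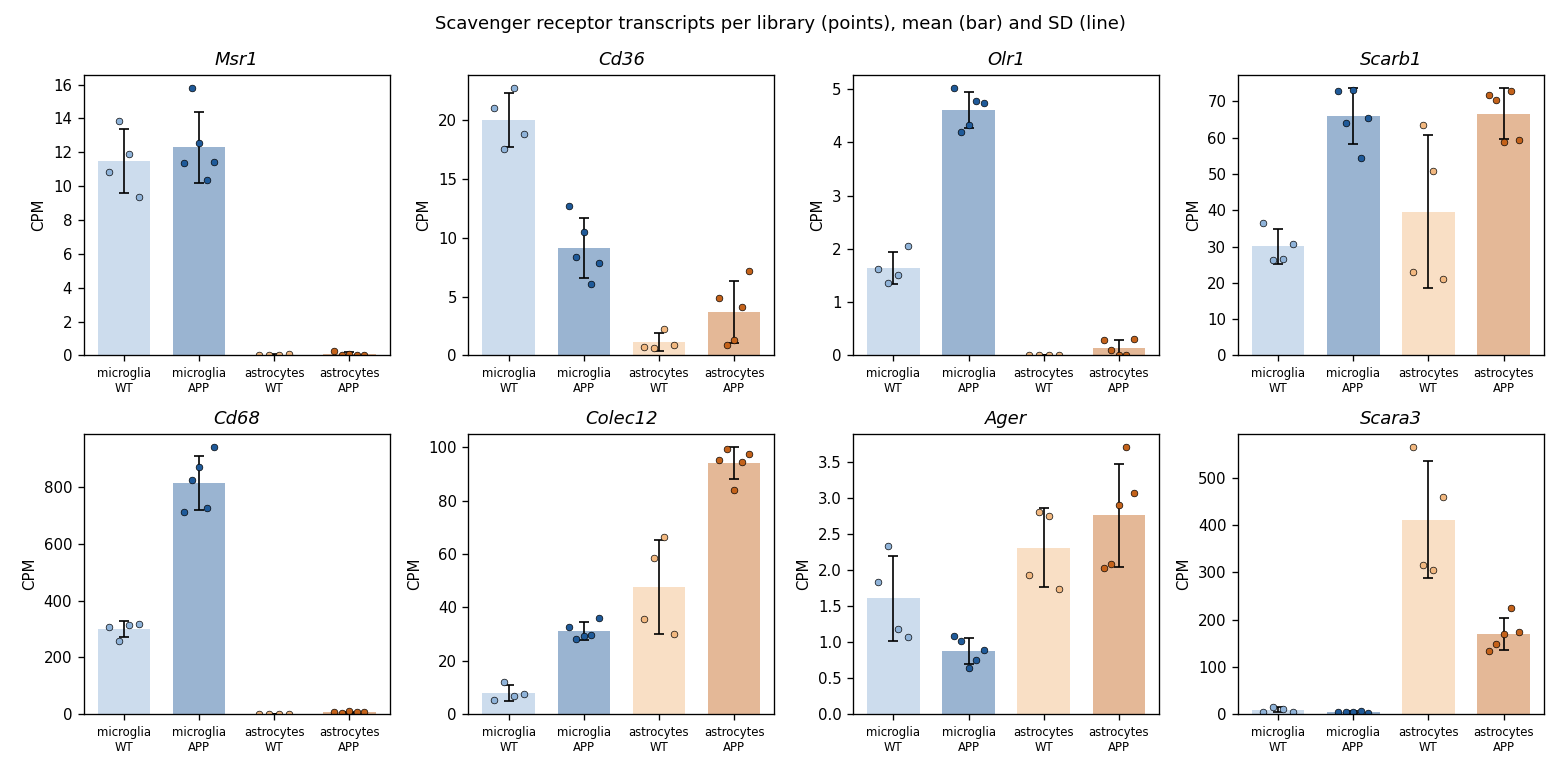
CPM of the 8 genes in each library (points) by cell type and genotype, with the mean (bar) and SD (line) of 4 WT or 5 APP libraries; each panel has its own linear axis from 0. Cd68, Olr1, Scarb1 and Colec12 lie higher in APP than in WT microglia without overlap, Cd36 lies lower, and Scara3 lies lower in APP astrocytes.

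Microglia of APP and WT mice were compared first, a contrast of genotypes with sex as covariate. Colec12, Olr1, Cd68 and Scarb1 rose and Cd36 fell, while Msr1, Ager and Scara3 did not pass the test. The 5 called genes make up 5 of 8, where 38.3% of all 13116 genes tested were called by edgeR's quasi-likelihood test at an adjusted p under 0.05, 19.1% higher and 19.2% lower. For 4 genes the APP values were all higher than the WT values (background 19.8%) and for 1 all lower (background 19.2%).

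Cd68, the lysosomal marker of phagocytes, had 308, 258, 314 and 318 CPM in WT replicates 1 to 4. In APP replicates 1 to 5 it had 712, 824, 869, 728 and 941 CPM. Every APP library was above every WT library by more than the spread within either genotype. On the log2 scale the change was 1.36 (SE 0.11, adjusted p = 4.04e-06, edgeR), or 2.56-fold. Cd68 was the most abundant of the 8 genes per kilobase in both genotypes.

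Olr1, the receptor for oxidised low-density lipoprotein, was rare in WT microglia, with 1.62, 1.37, 1.51 and 2.05 CPM. In APP microglia it had 5.02, 4.20, 4.32, 4.77 and 4.73 CPM. The groups did not overlap, and the 5 APP libraries lay close together. The fitted log2 value was 1.54 (SE 0.24, adjusted p = 0.000433, edgeR), on summed counts of 69 in WT and 331 in APP.

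Colec12, a class A receptor with a collagen-like stalk and a lectin domain, showed the largest change of the 8. It had 5.41, 12.2, 6.70 and 7.59 CPM in WT and 32.5, 27.99, 29.3, 29.8 and 36.2 CPM in APP. All 5 APP libraries lay well above the highest WT library, replicate 2. The log2 fold change was 2.13 (SE 0.22, adjusted p = 1.67e-05, edgeR), or 4.39-fold. The mural marker sum in the same microglia libraries was 30.7, 229, 207 and 32.3 CPM in WT and 261 to 314 CPM in APP. The endothelial sum was 133 to 168 CPM in WT and 304 to 451 CPM in APP, without overlap, although 2 of its 11 tested genes were called higher and 1 lower, and its part in the Colec12 change was not tested. With the mural level as covariate Colec12 changed by 1.84 (adjusted p = 0.000587).

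Scarb1, the high-density lipoprotein receptor, had 36.6, 26.3, 26.6 and 30.6 CPM in WT and 73.0, 63.9, 73.0, 54.4 and 65.3 CPM in APP. The lowest APP library was above the highest WT library. On the log2 scale the change was 1.10 (SE 0.13, adjusted p = 6.25e-05, edgeR). Cd68 and Scarb1 were called under all 23 alternatives, with log2 changes of 1.26 to 1.59 and 0.81 to 1.64. Olr1 and Colec12 were called under 22 of 23 each, the exception being a covariate for the border macrophage markers, added with the data in view (Olr1 1.20, adjusted p = 0.35, and Colec12 2.15, adjusted p = 0.0593).

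Cd36, the fatty acid and thrombospondin receptor, went the other way. It had 21.0, 17.5, 22.7 and 18.8 CPM in WT and 12.7, 8.40, 10.4, 6.06 and 7.87 CPM in APP. Every APP library lay below every WT library. The fitted log2 value was -1.01 (SE 0.20, adjusted p = 0.00194, edgeR), 2.01-fold lower. Without WT replicate 1 it was -0.63 and not called. In that fit sex leaves the contrast to the males, APP replicate 1 being the only APP male. Without both WT replicate 1 and the sex covariate Cd36 was at -1.11 (adjusted p = 0.000877, edgeR). It was also lost without WT replicates 1 and 4 (-0.66, adjusted p = 0.168) and with 1 marker covariate, given next, and was called in the other 20 of 23 alternatives.

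The markers of border macrophages, the macrophages of meninges and vessels, fell in the same microglia libraries. Of 10 such markers 8 fell and 0 rose, and their sum went from 1722 to 1844 CPM in WT to 336 to 623 CPM in APP. Stab1 alone made up most of that sum, with 1330 ± 58.3 CPM in WT and 373 ± 86.0 CPM in APP. The sum therefore mostly reads that gene and not the 10 markers alike. In a fit with their level as covariate, added with the data in view, the Cd36 difference was 0.02 (SE 0.49, adjusted p = 0.989). The covariate was the mean log2 level of these markers, not their sum. As 8 of 10 fell and the sum did not overlap between WT and APP, that covariate and the genotype may hardly be told apart in such a fit. In it 495 of the 13116 genes were called against 5022 without the covariate, and 2 of the 8 receptors, Cd68 and Scarb1.

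Msr1, the macrophage scavenger receptor of class A, had 10.8, 13.8, 11.9 and 9.38 CPM in WT microglia and 11.4, 15.8, 12.6, 10.4 and 11.4 CPM in APP. The groups overlapped throughout. The log2 fold change was 0.08 (SE 0.19, adjusted p = 0.762, edgeR), with a 95% interval from -0.33 to 0.50.

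Ager, the receptor for advanced glycation end products, lay near 1 CPM in microglia: 1.84, 2.33, 1.19 and 1.07 CPM in WT and 1.09, 1.01, 0.642, 0.757 and 0.887 CPM in APP. The lowest WT libraries overlapped with the highest of APP, and the log2 value of -0.85 (SE 0.40) missed the threshold (adjusted p = 0.116, edgeR). Summed counts were 69 in WT and 62 in APP, which limits the precision. Of 22 alternatives Ager passed in 1, without the sex covariate (-0.89, adjusted p = 0.0419).

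Scara3, the stress-induced class A member, had 4.22, 16.2, 11.9 and 5.09 CPM in WT microglia and 4.51, 4.35, 3.85, 7.72 and 1.60 CPM in APP. WT replicates 2 and 3 were the high libraries, and at -0.64 (SE 0.58) the gene missed the threshold (adjusted p = 0.412, edgeR). The astrocyte marker sum in the same libraries was 859, 2209, 1611 and 1054 CPM in WT and 1223, 1048, 1079, 2214 and 743 CPM in APP, so it was also high in WT replicates 2 and 3. In a fit with that level as covariate, added with the data in view, Scara3 differed by -0.90 (adjusted p = 0.0067). It also passed without the sex covariate when WT replicate 1 (-1.34, adjusted p = 0.0241) or replicates 1 and 4 (-1.69, adjusted p = 0.00537) were left out, 3 of 23 alternatives in all.

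**Figure D2:**
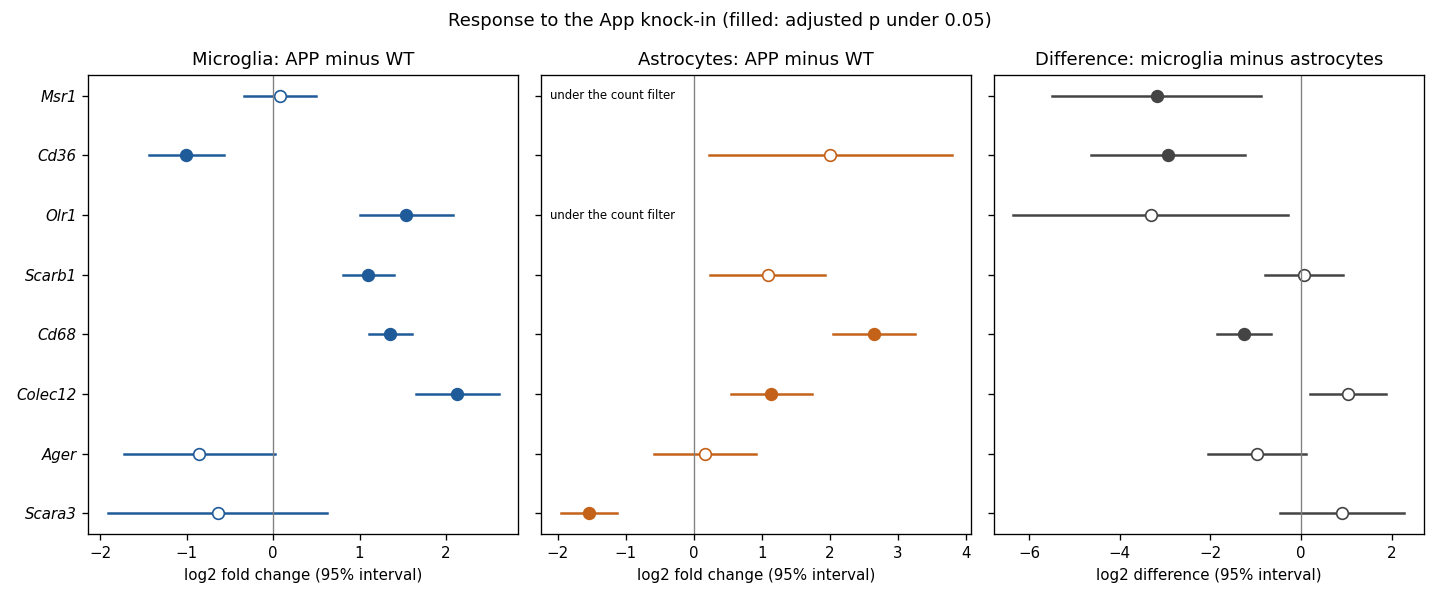
Log2 fold change of APP against WT with its 95% interval in microglia (left) and astrocytes (middle), and the difference of these responses (right), with filled points for an adjusted p under 0.05; the 3 panels have different axes. Of the filled points, 4 lie to the right of 0 and Cd36 to the left in microglia. In astrocytes the filled points of Cd68 and Colec12 lie to the right and that of Scara3 to the left. The astrocyte intervals of Cd36 and Scarb1, not filled, also lie above 0.

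In astrocytes Cd68 and Colec12 rose and Scara3 fell, and Cd36, Scarb1 and Ager did not pass the test. Msr1 and Olr1 had too few counts to enter it, so 6 of the 8 genes were tested and 3 were called, where 25.6% of all 14957 genes were called (12.1% higher and 13.5% lower). The same 3 genes were those without overlap between genotypes, 2 above (background 9.91%) and 1 below (background 11.5%). Without WT replicate 1, the only WT female, sex leaves the contrast to the males, APP replicate 1 being the only APP male. The log2 values were then 2.83 for Cd68, 0.87 for Colec12 and -1.44 for Scara3, and of the receptors only Cd68 was called. Without both WT replicate 1 and the sex covariate 1245 genes were called by edgeR, against 3836 with both. Among the receptors these were Cd68 (2.86), Colec12 (0.85) and Scara3 (-1.10).

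Scara3 was the most abundant of the 8 in astrocytes, and by a wide margin in WT, with 565, 315, 306 and 459 CPM. In APP it had 134, 148, 171, 224 and 173 CPM. The groups did not overlap, and the 2 highest WT values belonged to replicates 1 and 4. On the log2 scale the change was -1.54 (SE 0.18, adjusted p = 0.00246, edgeR), 2.92-fold lower. Without WT replicate 1 it was -1.44 and without replicates 1 and 4 it was -1.22, and neither was called. In these fits sex leaves the contrast to the males, APP replicate 1 being the only APP male. With the sex covariate left out as well, the values were -1.10 (adjusted p = 0.0141) and -0.885 (adjusted p = 0.0176, edgeR). The astrocyte marker sum fell as well, from 38797 to 55675 CPM in WT to 28843 to 34848 CPM in APP, and 9 of its 12 genes were called lower. In a fit with the mean log2 level of these markers as covariate, added with the data in view, Scara3 differed by -0.72 (adjusted p = 0.5, edgeR). As 9 of the 12 fell and their sum did not overlap between the genotypes, that covariate and the genotype may hardly be told apart.

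Colec12 had 35.6, 58.6, 66.3 and 29.9 CPM in WT astrocytes and 95.2, 99.3, 83.8, 94.6 and 97.5 CPM in APP. The groups did not overlap, and WT replicates 1 and 4 were the lowest. The fitted log2 value was 1.14 (SE 0.26, adjusted p = 0.0175, edgeR), or 1.16 with the replicate number as a block (adjusted p = 0.0616). It was 0.87 when WT replicate 1 was left out, and not called. In that fit sex leaves the contrast to the males, APP replicate 1 being the only APP male. Without the sex covariate as well Colec12 was at 0.85 (adjusted p = 0.0404, edgeR). Fibroblast markers moved with it: 9 of 10 rose, and their sum was 336, 856, 918 and 475 CPM in WT and 1238 to 1529 CPM in APP. In a fit with their level as covariate, added with the data in view, Colec12 differed by -0.13 (adjusted p = 0.871), and with that of the endothelial markers by 0.53 (adjusted p = 0.0853). The covariates were mean log2 levels of the markers, not sums. As 9 of 10 fibroblast markers rose and their sum did not overlap between WT and APP, the first fit may hardly tell its covariate from the genotype.

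Cd68 was low in astrocytes, with 1.31, 0.803, 1.14 and 0.981 CPM in WT and 7.05, 5.95, 10.1, 6.24 and 6.37 CPM in APP. The groups did not overlap, and APP replicate 3 was the highest. The log2 fold change was 2.66 (SE 0.27, adjusted p = 0.00158, edgeR). Without WT replicate 1, where sex leaves the contrast to the males, Cd68 was at 2.83 and remained called. Microglial markers rose with it, 15 of 16 of them.

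The level of Cd68 in astrocytes was therefore set against microglial RNA in the same mouse. Cd68 in the astrocyte library averaged 0.300% of its level in the microglia library in WT (range 0.249% to 0.381%) and 0.737% in APP (0.566% to 0.965%). The summed microglial markers, which were measured in the same way, averaged 0.281% in WT (0.250% to 0.328%) and 0.793% in APP (0.630% to 0.898%). The range of Cd68 overlapped with that of the markers in each genotype. In a fit with the microglial marker level as covariate, added with the data in view, Cd68 differed by 1.59 (adjusted p = 0.998), and 0 of 14957 genes were called by edgeR (409 at an unadjusted p under 0.05). The covariate was the mean log2 level of these markers, not their sum. As 15 of 16 rose and the sum did not overlap between WT and APP astrocytes, that covariate and the genotype may hardly be told apart.

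**Figure D3:**
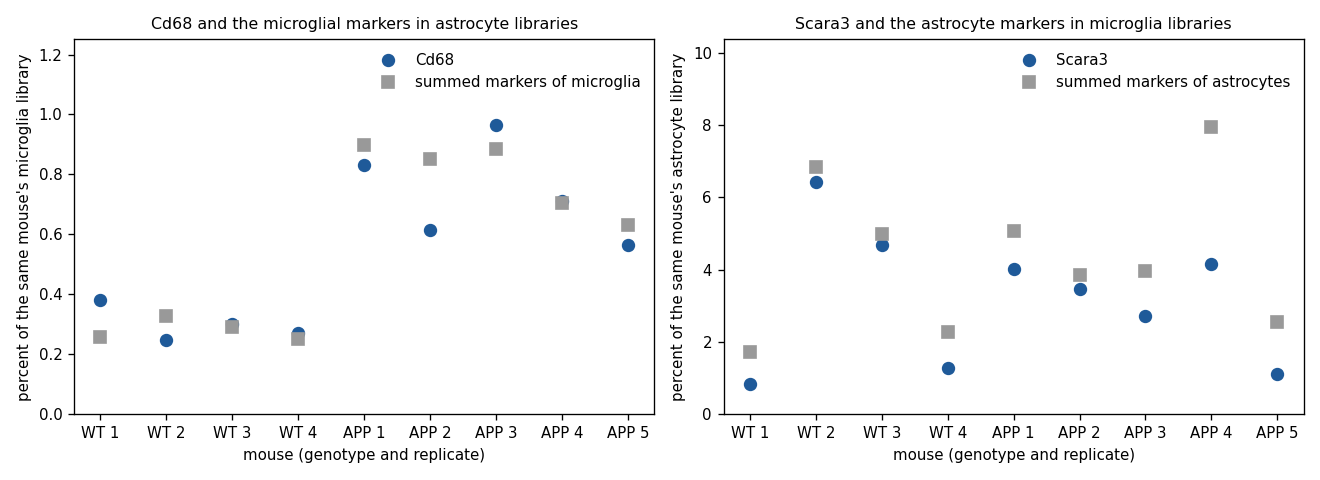
Left, Cd68 (circles) and the summed microglial markers (squares) in each mouse's astrocyte library as a percent of the same mouse's microglia library; right, Scara3 and the summed astrocyte markers in the microglia library as a percent of the astrocyte library. Cd68 lies at 0.249% to 0.381% in WT and 0.566% to 0.965% in APP, close to the marker sums, and Scara3 lies below the astrocyte marker sum in all 9 mice.

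The same reading for Scara3 in microglia gave 3.30% of its astrocyte level in WT (0.837% to 6.42%) and 3.09% in APP (1.10% to 4.16%). The summed astrocyte markers gave 3.96% in WT and 4.67% in APP. In each of the 9 mice the Scara3 percentage was below that of the astrocyte markers.

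Scarb1 had 23.04, 63.5, 50.9 and 20.9 CPM in WT astrocytes and 71.8, 70.3, 58.8, 72.8 and 59.3 CPM in APP. WT replicate 2 lay within the APP range, replicate 3 just below it and replicates 1 and 4 far below it. At a log2 value of 1.08 (SE 0.37) the gene missed the threshold (adjusted p = 0.0597, edgeR), although it passed with DESeq2 (1.09, adjusted p = 0.00686) and limma voom (1.06, adjusted p = 0.0447). The endothelial marker sum was 1178, 4779, 3727 and 1166 CPM in the same WT libraries, low in the same replicates 1 and 4. With that level as covariate the Scarb1 difference was 0.20 (adjusted p = 0.264).

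Cd36 had 0.751, 0.652, 2.27 and 0.872 CPM in WT astrocytes and 4.88, 0.893, 1.28, 4.13 and 7.18 CPM in APP. APP replicates 2 and 3 lay within the WT range and the other 3 above it. The log2 value of 2.00 (SE 0.79) missed the threshold (adjusted p = 0.088, edgeR), and it passed with DESeq2 (2.04, adjusted p = 0.0236).

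Ager had 1.94, 2.81, 2.75 and 1.74 CPM in WT astrocytes and 2.03, 2.08, 2.90, 3.71 and 3.08 CPM in APP. The groups overlapped, and the log2 difference was 0.16 (SE 0.33, adjusted p = 0.733, edgeR) with a 95% interval from -0.59 to 0.91. Msr1 had 0, 0, 0 and 1 counts in WT and 6, 0, 2, 0 and 0 in APP astrocytes, a ratio of 5.19 with an exact 95% counting interval from 0.695 to 230. Olr1 had 0 counts in all 4 WT libraries and 6, 2, 0, 0 and 7 counts in APP. That is 3.24-fold higher if the WT group is set at a floor of 3 counts. Such intervals cover counting error only, and the floors leave out the counting error of the higher group.

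**Figure D4:**
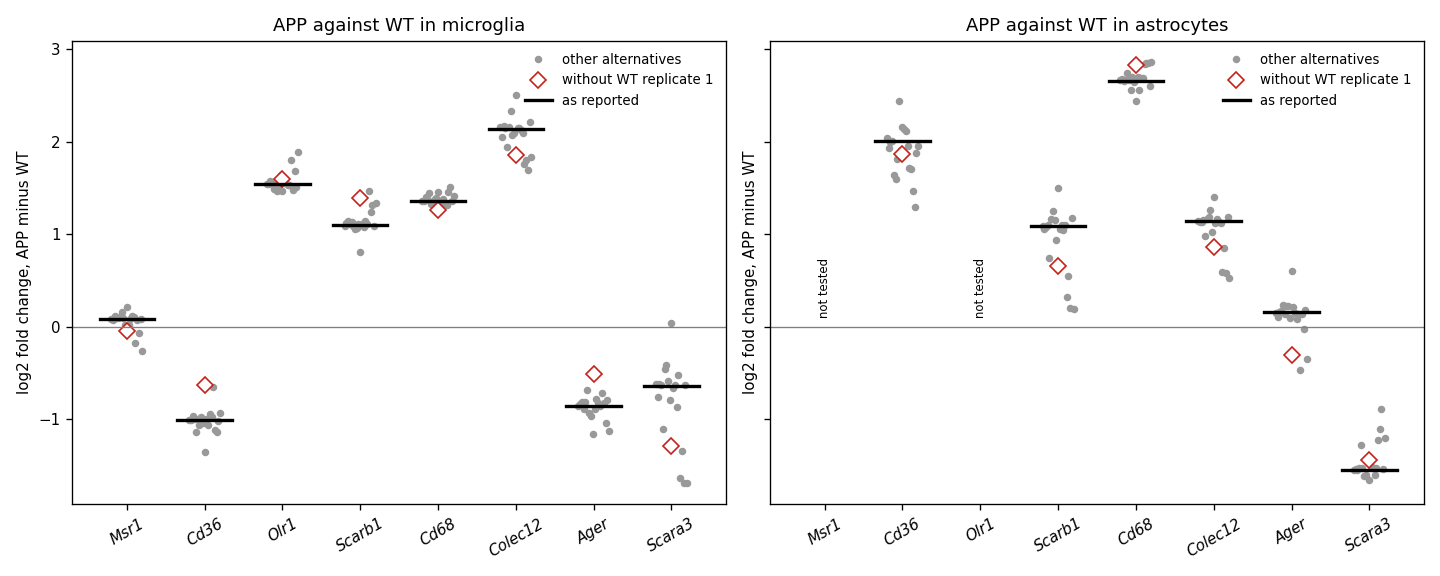
Log2 fold change of APP against WT for each gene as reported (bar), without WT replicate 1 (diamond) and under the other settings (points, without the covariates added with the data in view), in microglia (left) and astrocytes (right). In microglia the 4 genes that rose stay at or above 0.81 in every such setting, whereas Scarb1 and Colec12 in astrocytes move toward 0 without WT replicate 1.

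Microglia and astrocytes were then compared within each genotype, as the cell type of a receptor bears on where it could act. In WT, 6 of the 8 genes differed, 4 higher in microglia and 2 lower, where 80.1% of all 15550 genes did (edgeR), 37.9% higher and 42.3% lower. These 6 were also without overlap, as were 35.8% of all genes in the higher and 38.7% in the lower direction. Msr1 and Olr1 had too few astrocyte counts for the filter and entered this fit through microglia. Their calls as higher in microglia are therefore not independent of the filter. Cd68 (log2 difference 8.36, SE 0.22), Cd36 (4.40, SE 0.58), Msr1 and Olr1 were higher in microglia. Colec12 (-2.35, SE 0.27) and Scara3 (-5.54, SE 0.46) were higher in the astrocyte libraries. In astrocytes, summed endothelial markers stood at 768% to 2372% of the same mouse's microglia library in WT, and fibroblast markers at 165% to 368%. The part of such RNA in the Colec12 difference was not tested. Ager (-0.35, SE 0.33, adjusted p = 0.336) and Scarb1 (0.00, SE 0.27, adjusted p = 0.993) did not pass. The 95% interval for Scarb1 ran from -0.57 to 0.57. Without WT replicates 1 and 4 the Scarb1 value was -0.84 (adjusted p = 0.00243), higher in the astrocyte libraries. The endothelial sum in astrocytes was 4779 and 3727 CPM in WT replicates 2 and 3, against 1178 and 1166 CPM in replicates 1 and 4. Its part in that Scarb1 value was not tested.

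For the rarest genes the summed counts carry the comparison. Msr1 had 487 counts in WT microglia against 1 in WT astrocytes, a ratio of 928 per scaled library total with an exact 95% counting interval from 166 to 36740. In APP it had 884 against 8 counts, a ratio of 192 (97.1 to 446). Olr1 had 69 counts in WT microglia against 0 in WT astrocytes, 43.9-fold higher if WT astrocytes are set at a floor of 3 counts. In APP it had 331 against 15 counts, a ratio of 38.4 (22.9 to 69.3).

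In APP mice 7 of the 8 genes differed between the cell types, 4 higher in microglia and 3 lower, where 81.1% of all genes did, 40.7% higher and 40.4% lower. These 7 were also without overlap, as were 37.8% of all genes in the higher and 38.5% in the lower direction. Msr1 and Olr1 again passed the filter through microglia only. Cd68 (7.10, SE 0.21), Msr1, Olr1 and Cd36 (1.47, SE 0.49, adjusted p = 0.0121) were higher in microglia. Colec12 (-1.31, SE 0.24), Ager (-1.33, SE 0.32, adjusted p = 0.00121) and Scara3 (-4.63, SE 0.43) were higher in the astrocyte libraries. There the endothelial markers stood at 675% to 1265% of the same mouse's microglia library, and the fibroblast markers at 863% to 1210%. The part of such RNA in the Colec12 difference was not tested here either. Scarb1 (0.07, SE 0.25, adjusted p = 0.815) did not pass. Without APP replicate 1, the only APP male, 4 of the 8 were called and Cd36 was not (1.01, adjusted p = 0.354). Msr1 (7.99, SE 6643) and Olr1 (5.50, SE 8494) were higher in that fit than with all mice, on 2 and 9 astrocyte counts, but their standard errors could not be estimated, so it gives no usable test of them.

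The difference of the APP response between the cell types was tested over all 18 libraries, as microglia minus astrocytes on the log2 scale. It passed for 3 of the 8 genes, all 3 below 0, where 21.4% of all genes passed (edgeR), 12.5% above 0 and 8.91% below. Cd36 differed by -2.93 (SE 0.80, adjusted p = 0.0155), with -1.01 in microglia and, without passing, 2.00 in astrocytes. Cd68 differed by -1.26 (SE 0.28, adjusted p = 0.00433), and the microglial RNA in the astrocyte libraries differed between genotypes as given above. Msr1 differed by -3.19 (SE 1.08, adjusted p = 0.047, edgeR), which rests on 1 count in WT astrocytes and 8 in APP astrocytes, 6 of them in replicate 1. Msr1 in astrocytes averaged 0.254% of its level in the same mouse's microglia library in WT and 0.553% in APP. The part of microglial RNA in the Msr1 difference was not tested. Msr1 and Olr1 passed the count filter of this fit through microglia only. With the mouse as a block Msr1 was lost (-3.41, adjusted p = 0.0859) and Colec12 gained (1.06, adjusted p = 0.0265). Colec12 passed in 7 of 18 alternatives in all, among them the fits that leave out WT replicate 2 (1.10, adjusted p = 0.0345) or replicate 4 (1.09, adjusted p = 0.037), and its value ran from 0.79 to 1.10.

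Colec12 (1.04, SE 0.40, adjusted p = 0.0772), Olr1 (-3.32, SE 1.39, adjusted p = 0.114), Ager (-0.97, SE 0.51, adjusted p = 0.199) and Scara3 (0.91, SE 0.64, adjusted p = 0.361) did not pass. Scarb1 differed by 0.06 (SE 0.40, adjusted p = 0.941) with a 95% interval from -0.79 to 0.92. Without WT replicate 1 only Cd68 was called among the 8, without APP replicate 1 edgeR called 0 of 8 (3 at an unadjusted p under 0.05), with Cd68 at -1.04 (adjusted p = 0.13), and without WT replicates 1 and 4 only Scarb1 was (1.10, adjusted p = 0.0308).

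Related genes were read from 5 further lists, and the genes named are those of smallest adjusted p. The counts in microglia stand against 38.3% of all genes called there, 19.1% higher and 19.2% lower, and those in astrocytes against 25.6%, 12.1% higher and 13.5% lower. Among other scavenger and uptake receptors in microglia, 2 rose and 6 fell of 11 tested, with a median log2 change of -0.50 against 0.01 over all genes. Cxcl16, a membrane-bound chemokine that also binds oxidised lipoprotein, rose from 65.6 ± 3.65 to 157 ± 9.96 CPM (log2 1.20, SE 0.08). Stab1, a clearance receptor, fell from 1330 ± 58.3 to 373 ± 86.0 CPM (-1.81, SE 0.18), and Cd163, the haemoglobin-haptoglobin receptor, fell from 42.0 ± 4.61 to 15.2 ± 2.35 CPM (-1.51, SE 0.14). Stab1 and Cd163 are also among the border macrophage markers that fell.

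Co-receptors and signalling partners of Cd36, Msr1, Scarb1 and Ager moved both ways in microglia, 3 up and 6 down of 12 tested. Tlr2, a toll-like receptor that works with Cd36, rose from 172 ± 13.4 to 543 ± 82.1 CPM (log2 1.56, SE 0.13). Cd9, a tetraspanin partner of Cd36, rose from 533 ± 54.0 to 1635 ± 113 CPM (1.55, SE 0.10), and Fyn, a Src family kinase downstream of Cd36, rose to 46.8 ± 2.84 CPM (1.57, SE 0.09). These 3 rose while Cd36 fell in the same libraries, and the 6 other called genes of the list fell as Cd36 did.

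Of the Ager ligands 1 of 6 tested rose in microglia, S100a1, from 5.22 ± 1.14 to 13.9 ± 0.635 CPM (log2 1.50, SE 0.18), and 0 fell. The lysosomal membrane proteins related to Cd68 rose in 2 of 2 tested, Lamp1 by 0.84 (SE 0.09) and Lamp2 by 0.51 (SE 0.09). Of the transcription factors known to act on these receptors 4 of 9 rose and 0 fell, a share called near that of all genes, among them Srebf1 of lipid synthesis (0.60, SE 0.08), the fatty acid sensor Ppard (0.48, SE 0.08) and the oxysterol receptor Nr1h2 (0.38, SE 0.09).

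**Figure D5:**
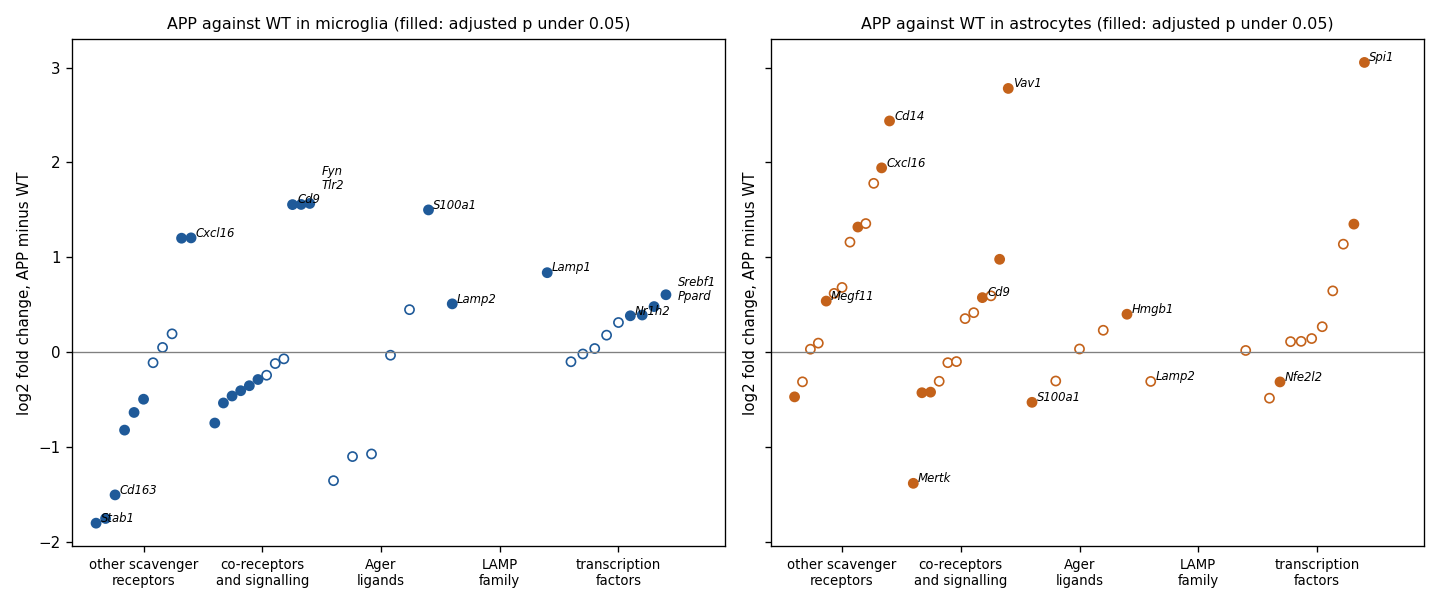
Log2 fold change of APP against WT for the tested genes of 5 lists in microglia (left) and astrocytes (right), each point 1 gene, filled where the adjusted p was under 0.05, with the named genes labelled. In microglia Tlr2, Cd9 and Fyn lie near 1.56 and Stab1 at -1.81, and in astrocytes Mertk lies at -1.39.

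In astrocytes 4 of 13 other scavenger receptors rose and 1 fell, Cd14, a receptor for lipopolysaccharide, from 0.964 ± 0.152 to 5.01 ± 1.59 CPM (log2 2.44, SE 0.34), Cxcl16 from 1.99 ± 1.18 to 5.60 ± 0.811 CPM (1.94, SE 0.43) and the engulfment receptor Megf11 from 8.50 ± 0.353 to 12.2 ± 1.21 CPM (0.54, SE 0.13) among the risers. Of the partners 3 rose and 3 fell of 12. Mertk, a receptor for apoptotic cells, fell from 531 ± 144 to 244 ± 35.8 CPM (-1.39, SE 0.14), Cd9 rose by 0.57 (SE 0.12) and Vav1, a signalling protein of blood and immune cells, from 0.291 ± 0.242 to 2.19 ± 0.590 CPM (2.78, SE 0.61).

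The Ager ligands in astrocytes gave 1 rise and 1 fall of 5, Hmgb1 (0.40, SE 0.10) and S100a1 (-0.53, SE 0.13). Neither of the 2 tested LAMP genes passed, Lamp2 being at -0.31 (SE 0.12, adjusted p = 0.0778). Of 10 transcription factors 2 rose and 1 fell. Spi1, the myeloid factor PU.1, rose from 0.265 ± 0.273 to 1.56 ± 0.385 CPM (3.05, SE 0.81), whereas Nfe2l2, of the oxidative stress response, fell by 0.32 (SE 0.09). The microglial marker sum rose in the same astrocyte libraries, as given above, and its part in the rises of Cd14, Vav1 and Spi1 was not tested.

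The genes with profiles most like each receptor were found over the 18 libraries, by the root mean square difference of centred log2 CPM. For Cd68 these were Plek (0.27), Bcl2a1b (0.29) and Cd14 (0.32). For Msr1 Gpr183 (0.43) and Lilr4b (0.43) were nearest, and for Olr1 Egr1 (0.44), Zc3h12d (0.47) and Sdf2l1 (0.49). For Cd36 the nearest genes were farther off, P3h2 (0.58), Zfyve28 (0.61) and Igf2bp2 (0.70).

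Near Scara3 were Kcnk1 (0.23) and Cspg5 (0.25), and near Colec12 Nbl1 (0.24), Eml2 (0.33) and Synpo (0.35). For Scarb1 they were Ctnnb1 (0.25), Nampt (0.26) and Rtp4 (0.28), and for Ager B3gnt9 (0.30), Rasal2 (0.30) and Wwc2 (0.33). The points share libraries, cell type and depth, so these distances are descriptions.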

How the data were processed

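Bulk RNA-seq of 9 sorted microglia and 9 sorted astrocyte libraries was used. The authors deposited 1 table of whole read counts per cell type. The deposited normalized tables hold log2 values, used as an alternative. STAR 2.7.3a (aligner), SAMtools 1.9, Trimmomatic 0.39 (trimming), limma 3.46.0 and edgeR 3.32.1, with FastQC 0.11.8 and build mm10, are named per the submitters' processing notes. The sources used here do not give the counting tool or the use of strand, and the table names say that outliers had been left out. Replicates were separate mice.

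APP and WT were compared within each cell type with edgeR 4.0.16 in R 4.3.3 (filterByExpr with minimum count 10 and total 15, TMM, sex as covariate, quasi-likelihood F-test, Benjamini-Hochberg adjustment over all genes tested, called at an adjusted p under 0.05). The cell types and the difference of their responses were compared in 1 fit of 18 libraries with sex within cell type. Libraries of the same mouse correlated at 0.0609 to 0.25 in their deviations from the group means, and the pairing comes from the mouse number in the library names. A replicate block for the mouse called 2901 genes for the difference of responses, against 3328. Levels use totals scaled within a cell type, and cell type contrasts and levels per kilobase use totals scaled over 18 libraries. Kilobases are the exon union of GENCODE M21. Alternatives used DESeq2 1.42.0, limma 3.58.1, other filters, libraries left out and marker covariates, 6 of which were chosen after seeing the data. A marker covariate was the mean over the listed markers of the log2 of CPM plus 1, not their sum. WT replicate 1 was the only WT female and APP replicate 1 the only APP male. A fit with sex that leaves out 1 of them rests its genotype contrast on the other. The fits were tried on simulated data with the same dispersion for all genes, without a sex effect or outlying libraries. Changes were set only in genes of higher counts, so that trial does not cover the rare genes.

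The 8 genes and all lists were chosen with earlier results of these data known. Genes named from a list are up to 3 called ones of smallest adjusted p in each cell type, or the 1 of smallest p where none was called, and the 3 nearest profiles leave out predicted and sex-linked genes. Some genes that this rule names are not reported here.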

Additional observations from a re-analysis of the deposited data

Results flagged for a closer look

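Of 31 sets of 4 or 5 libraries (a gene in a group), 3 held a library far from the others by Dixon's criterion. Chance gives about 1 in 20 for normally distributed values, which counts near 0 are not. In WT astrocytes Cd36 was highest in replicate 3 at 2.27 CPM, where the other 3 lay between 0.652 and 0.872 CPM. In APP astrocytes Cd68 was highest in replicate 3 at 10.1 CPM, where the other 4 lay between 5.95 and 7.05 CPM. Msr1 in WT astrocytes was highest in replicate 4 at 0.109 CPM, which is 1 count against 0 in the other 3 libraries. Such a set always meets the criterion, so it is no sign of an outlier.

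The APP response differed between microglia and astrocyte libraries by an interaction test in edgeR for Cd36 (-2.93, adjusted p = 0.0155), Cd68 (-1.26, adjusted p = 0.00433) and Msr1 (-3.19, adjusted p = 0.047). Cd68 in astrocytes averaged 0.300% (WT) and 0.737% (APP) of its microglia level, and the summed microglial markers 0.281% and 0.793%. The Msr1 value rests on 1 count in WT astrocytes and 8 in APP astrocytes, 6 of them in replicate 1. Msr1 in astrocytes averaged 0.254% (WT) and 0.553% (APP) of its microglia level. The part of microglial RNA in the Cd68 and Msr1 differences was not tested. Over 18 alternatives the Cd36 difference ran from -3.56 to -2.40 and was lost in 4, the Cd68 difference ran from -1.58 to -1.04 and was lost in 2, and the Msr1 difference ran from -5.48 to -1.49 and was lost in 11.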

How the results depend on the processing

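Values are numbers of genes or receptors called, or log2 differences that did not pass unless stated. For APP against WT in microglia, leaving out each library in turn gave 2641 (without WT replicate 1) to 5085 called genes and 4 to 5 receptors. Without WT replicates 1 and 4 there were 2330 genes, with the mural covariate 2905, with the fibroblast covariate 3076, and with the border macrophage covariate 495 genes and 2 receptors. Msr1, never called, ran from -0.044 (without WT replicate 1) to 0.21 with 1 library left out, and was below 0 without WT replicates 1 and 4 (-0.18, or -0.066 without the sex covariate), and with the mural (-0.26) and fibroblast (-0.25) covariates. Scara3 ran from -1.29 to 0.037 (without APP replicate 1) with 1 library left out and was lowest, at -1.95, with the border macrophage covariate, with which Cd36 was 0.02.

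In astrocytes, leaving out each library gave 34 (without WT replicate 1) to 4217 genes and 1 to 4 receptors, and WT replicates 1 and 4 left out gave 142 genes and 1 receptor. Without the sex covariate as well, 1245 genes were called without WT replicate 1 and 613 without both. DESeq2 called 5 receptors, and the endothelial covariate left 392 genes. With the replicate number as a replicate block 1907 genes were called, but the number alone is shared (correlations -0.192 to 0.073 in microglia and -0.23 to 0.112 in astrocytes). With no filter Msr1 (adjusted p = 0.151) and Olr1 (adjusted p = 0.127) were not called. Covariates added with the data in view left 0 genes (microglial), 5 (fibroblast) and 1 (astrocyte), and 0 receptors each, where 409, 1384 and 1354 genes and 1, 2 and 2 receptors had an unadjusted p under 0.05 (edgeR). In the same order Scarb1 was at -1.47, -0.63 and -0.67, Colec12 at -0.20, -0.13 and -0.12 and Ager at -0.48, -0.78 and -0.54, and Scara3 was at 0.24 with the microglial one. Ager ran from -0.30 (without WT replicate 1) to 0.60 with 1 library left out, and was also below 0 without WT replicates 1 and 4 (-0.47, or -0.026 without the sex covariate) and with the endothelial covariate (-0.34).

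Between cell types, Scarb1 lay near 0 and changed sign. In WT it was -0.0098 with DESeq2 and -0.0067 with voom, -0.18 without the sex covariate, -0.47 (without WT replicate 1) to 0.30 with 1 mouse left out, -0.45 without sex and WT replicate 1, and called at -0.84 without WT replicates 1 and 4 (-0.82 without sex too). In APP it was -0.044 with DESeq2, -0.013 with no filter and -0.52 (without APP replicate 1) to 0.26 with 1 mouse left out, and leaving out each mouse gave 4 (without APP replicate 1) to 7 receptors. In the difference of the responses it was -0.035 with DESeq2, -0.016 with no filter, -0.0029 with the mouse as replicate block and -0.74 (without APP replicate 1) to 0.73 with 1 mouse left out. Leaving out each mouse gave 855 (without WT replicate 1) to 3303 genes and 0 to 4 receptors for that difference, and WT replicates 1 and 4 left out gave 922 genes and 1 receptor. Scara3 then was -0.48 (-0.88 without the sex covariate, and -0.29 without sex and WT replicate 1). The causes were not tested. Apart from the calls given here and in the results, the replicate blocks changed no call of a receptor. Precision in astrocytes was limited by few counts for Msr1, Olr1 and Ager, and for Cd36 by the spread between libraries (coefficient of variation 71.3% in APP).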
